A study of Mus musculus with 57 samples.

Results

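Transcripts of 6 genes were followed through liver macrophages of mice on a diet used to model NASH (non-alcoholic steatohepatitis, a fatty and inflamed liver): Gpnmb, Atp6v0d2 and the 4 MiT/TFE transcription factor genes Mitf, Tfeb, Tfe3 and Tfec. The rows of the deposited count table were selected by gene symbol, with the transcript of the highest total count for each, and gave 6 of 24941 genes. All 6 were in the table and all 6 passed the filter on low counts in every set. The set of 6 was chosen on the difference that Gpnmb showed between Kupffer cells (macrophages that reside in liver sinusoids) of control and NASH diet, so the values of the 6 genes in that contrast are given as a description without a test. A comparison of other cells with the same NASH diet Kupffer libraries is not independent of that choice either.

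Polyadenylated RNA was sequenced in 57 libraries of 16 groups, which form 4 sets. The population set came from C57BL/6J mice and held 2 libraries of each group. One group was Kupffer cells of control diet, and 5 came from NASH diet: Kupffer cells, macrophages recruited into the Kupffer niche (Kupffer-niche cells below), recruited liver macrophages low or high in Ly6C, and blood monocytes high in Ly6C. The labels give no duration of the diet for these groups. Kupffer cells were sorted as high in F4/80 and positive for Tim4, Kupffer-niche cells as high in F4/80 and negative for Tim4, and both Ly6C groups as high in CD11b. The time course held C57BL/6J Kupffer cells of control diet, called week 0 (n = 3), and of mice kept on NASH diet for 1 or 4 weeks (n = 2 each), for 10 or 20 weeks (n = 3 each) or for 30 weeks (n = 4). In the LXR set, mice with floxed genes of both LXR receptors had eaten NASH diet for 20 weeks, and their Kupffer-niche cells gave 3 libraries labelled positive for Clec4f-cre (a recombinase expressed from a Kupffer cell promoter) and 3 labelled negative for Cre. The whole liver set held mice on a CDAHFD NASH diet (choline-deficient, high in fat) for 4 weeks, 12 labelled Clec4f-cre DTR positive (carrying a diphtheria toxin receptor) and 10 negative, and the labels used here say nothing of toxin given. Levels are CPM, the counts of a gene relative to the total count of its library, scaled by TMM within a set, so a level in 1 set was not tested against a level in another.

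GPNMB is a glycoprotein of the cell surface and of late endosomes that is abundant in macrophages loaded with lipid or debris, in osteoclasts and in melanocytes. The V-ATPase is a proton pump that acidifies lysosomes. Its membrane part holds 1 d subunit, which is either d1, made in most cells from Atp6v0d1, or d2, made from Atp6v0d2 in osteoclasts, some macrophages and kidney cells. MITF, TFEB, TFE3 and TFEC are related basic helix-loop-helix leucine zipper proteins. When amino acids are plentiful, mTORC1 on the lysosome phosphorylates TFEB and TFE3, which are then held in the cytosol. When mTORC1 is less active, or calcineurin removes the phosphate after calcium leaves the lysosome through MCOLN1, they enter the nucleus and bind the CLEAR element, an 8-base site around an E-box in promoters of lysosome genes. Their activity is set in large part by location in the cell, which RNA counts do not measure.

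The genes lie at these positions of mm10. Gpnmb (NM_053110) spans chr6:49036518-49058182 on the plus strand, and Atp6v0d2 (NM_175406) spans chr4:19876838-19922566 on the minus strand. Mitf (NM_001113198) lies at chr6:97807058-98021358 on the plus strand and Tfec (NM_031198) at chr6:16833381-16898441 on the minus strand. Tfeb (NM_001161722) lies at chr17:47737037-47792416 and Tfe3 (NM_172472) at chrX:7762661-7775202, both on the plus strand. The counts cover the exons of 1 transcript each, and the table holds 3 transcripts of Mitf, 3 of Tfeb, 6 of Tfe3 and 1 of each other gene. A read in an exon shared by transcripts was counted for each, so the 3 Mitf transcripts, the lower 2 with 97.7% and 93.3% of the count of the highest, were not told apart.

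The CLEAR element TCACGTGA was searched in RefSeq promoter windows (GRCm38.p6, from 250 bases before to 50 bases after a start), since it is the site that these factors are known for. The sites are shown because they sit in genes of the pathway and not in the RefSeq windows of the members. Both strands were searched, and TCACGTGA holds the E-box CACGTG. Windows were matched for 5 of the 6 members, all but Atp6v0d2, and none of the 5 holds CACGTG (found in 8.09% of 27025 genes) or the variant E-box CATGTG (15.9%). None of the 5 therefore holds TCACGTGA (1.12% of these genes) or TCATGTGA (1.15%). Among 19 V-ATPase genes with a window, 4 (21.1%) hold CACGTG and 3 (15.8%) hold TCACGTGA. Of 22 listed CLEAR target genes with a window, 10 (45.5%) hold CACGTG and 4 (18.2%) hold TCACGTGA. These genes are listed as known targets of factors that bind this site, so their share is not an independent result. Sites are printed 5′ to 3′ on the strand of the gene, with the element in capitals. Atp6v0d1, the paralog of Atp6v0d2, holds it across its start at chr8:105566050-105566079 (minus strand), Atp6v0e just after its start at chr17:26676387-26676416 (plus strand), and Atp6v1a at chr16:44139373-44139402 (minus strand). Ctsd (the protease cathepsin D) holds it at chr7:142387908-142387937 (minus strand) and Mcoln1 (the lysosomal calcium channel) at chr8:3500462-3500491 (plus strand).
Atp6v0d1: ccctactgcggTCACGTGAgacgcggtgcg
Atp6v0e: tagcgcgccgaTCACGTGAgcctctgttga
Atp6v1a: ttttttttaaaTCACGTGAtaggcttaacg
Ctsd: tcgcccgcgtcTCACGTGAcccgttgaggg
Mcoln1: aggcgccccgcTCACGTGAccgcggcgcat

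Gpnmb holds the related 8-base site TCACATGA (TCATGTGA on the other strand) further on, 72 bases after the start of its RefSeq transcript in the count table. The 8 bases lie at chr6:49036590-49036597 (GENCODE M21, GRCm38, plus strand), in exon 1 of Gpnmb-205, a transcript annotated as a retained intron. They end 17 bases before the first exon of ENSMUST00000031840.9. The first exons of ENSMUST00000203757.1 and ENSMUST00000204260.1 follow after 67 and 79 bases. Whether the site lies before or after a start of Gpnmb, and within such a window, thus depends on the transcript annotated. The 8 bases are printed within chr6:49036579-49036608. TCATGTGA or TCACATGA is found in the first 100 bases of 309 of 139316 annotated transcripts (0.222%). This share is by transcript and cannot be set against the shares of genes in the promoter windows above. Of the GENCODE transcripts of Gpnmb only Gpnmb-205 holds the site in its first exon, so the share is no test of this match. A match describes these letters only, and binding was not measured here.
Gpnmb: tgcttaaaacaTCACATGAtctccctctgg

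Libraries held 12368140 to 22707571 counts in the population set, 10483452 to 26969509 in the time course, 2319383 to 5086239 in the LXR set and 5389957 to 9941477 in whole liver. The 5 Kupffer cell markers (Clec4f, Timd4, Vsig4, Cd5l and Marco) summed to 13975 to 32251 CPM in all Kupffer cell libraries and to 11485 to 13608 CPM in Kupffer-niche cells. They summed to 190 to 404 CPM in both Ly6C groups of the liver and to at most 0.244 CPM in blood monocytes. The 6 macrophage markers were detected in every group. The 4 melanocyte markers summed to at most 0.244 CPM in all sorted libraries. Calls on the deposited TPM scale (limma on log2(TPM + 1)) were more often lower after the diet and in Kupffer-niche cells against blood, and more often higher in Ly6C-low against Kupffer-niche cells, than in edgeR's quasi-likelihood test on counts. The split of higher to lower calls was 967 to 2852 against 1611 to 1377 for the diet in the population set. It was 898 to 2223 against 1371 to 954 at week 1, 608 to 1216 against 808 to 435 at week 4 and 1326 to 1451 against 1675 to 1111 at week 10. At week 20 it was 1332 to 4306 against 2646 to 2410 and at week 30 1149 to 4685 against 2255 to 2182. Ly6C-low against Kupffer-niche cells gave 4652 to 1501 against 2202 to 2602, and Kupffer-niche cells against blood monocytes 3473 to 5127 against 4897 to 3812. The median log2 over all genes on the TPM scale was -0.030, -0.184 and -0.230 at weeks 10, 20 and 30. By counts it was 0, -0.0007 and -0.002. For Ly6C-low against Kupffer-niche cells it was 0.223 against -0.014, and for Kupffer-niche cells against blood -0.104 against 0.095. A TPM value of a single gene is to be read beside these medians.

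Gpnmb was at the lowest levels of the population set in Kupffer cells of control diet and in blood monocytes, and at 209 CPM or more in every liver macrophage group of the NASH diet. It stood at 3.09 and 2.76 CPM in control Kupffer cells and at 889.8 and 1528 CPM in NASH diet Kupffer cells. Kupffer-niche cells held 636 and 877 CPM, Ly6C-low cells 599 and 597 CPM, Ly6C-high cells 472 and 209 CPM, and blood monocytes 6.64 and 3.26 CPM. All 8 liver libraries of the NASH diet lay above all 4 libraries of the other groups. Here and below, groups without overlap are a description of few libraries, and the share of all genes without overlap was not computed. Between Ly6C-high liver cells and blood monocytes Gpnmb rose by log2 6.05 ± 0.47 (SE, n = 2 each, adjusted p = 2.86e-06). Between Kupffer-niche cells and blood monocytes the difference was log2 7.20 ± 0.49 (adjusted p = 3.55e-07). The first was log2 5.34 without replicate 1 of the Ly6C-high cells and 6.70 without replicate 1 of blood, and the second was 7.86 without replicate 1 of blood. In bulk samples a change in the number of cells that express a gene and a change in RNA per cell cannot be told apart.

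Among the liver macrophages of the NASH diet the groups did not overlap in Gpnmb, but no neighbours in their order passed the test. Kupffer-niche cells against NASH diet Kupffer cells gave log2 -0.68 ± 0.36 (adjusted p = 0.654). Ly6C-low against Kupffer-niche cells gave log2 -0.34 ± 0.36 (adjusted p = 0.511), and Ly6C-low against Ly6C-high cells log2 0.81 ± 0.37 (adjusted p = 0.128). The last of these was called without replicate 1 of the Ly6C-high cells (log2 1.52, adjusted p = 0.0187) and without the filter on low counts (log2 0.82, adjusted p = 0.0200).

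**Figure D1:**
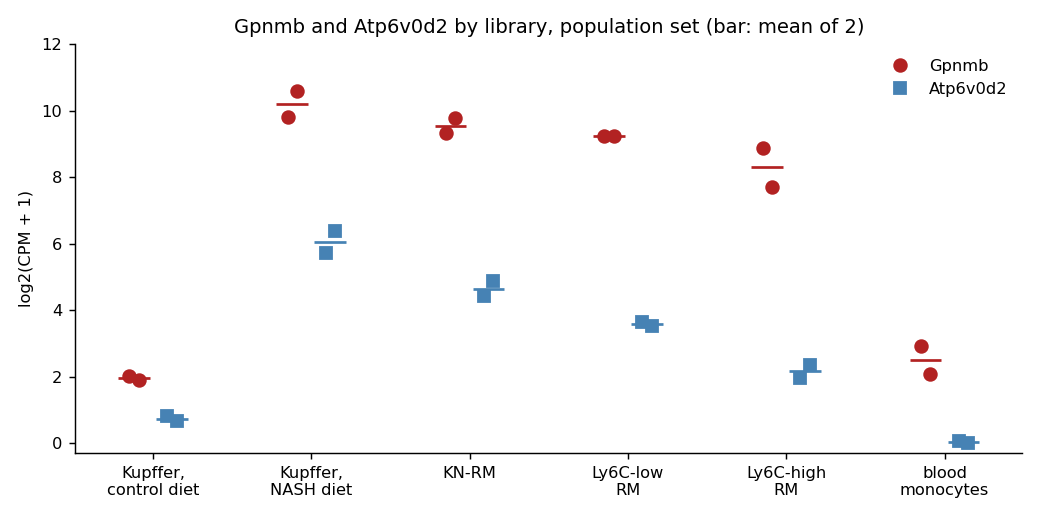
Gpnmb (circles) and Atp6v0d2 (squares) in the 12 libraries of the population set as log2(CPM + 1), 1 point a library, with a bar at the mean of 2 (KN-RM, Kupffer-niche cells; RM, recruited macrophages). Gpnmb is high in all 8 liver libraries of the NASH diet (209 CPM or more), while Atp6v0d2 steps down from 82.6 CPM in a NASH diet Kupffer library to 2.91 CPM in a Ly6C-high library.

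Atp6v0d2, the d2 subunit gene, was also low in control Kupffer cells and blood monocytes, and its levels stepped down across the liver macrophages of the NASH diet. Control Kupffer cells held 0.757 and 0.597 CPM and NASH diet Kupffer cells 52.0 and 82.6 CPM. Kupffer-niche cells held 20.4 and 28.4 CPM, Ly6C-low cells 11.5 and 10.5 CPM, and Ly6C-high cells 2.91 and 4.14 CPM. Blood monocytes held 1 count in 1 library and 0 counts in the other. No groups overlapped in this order, which was read from the data and runs from NASH diet Kupffer cells down to Ly6C-high cells. Kupffer-niche cells were lower than NASH diet Kupffer cells by log2 -1.47 ± 0.25 (SE, n = 2 each, adjusted p = 0.0335). That call was lost without each of the 4 libraries (log2 -1.76 to -1.08, adjusted p = 0.051 to 0.258) and when only these 4 libraries were fitted (adjusted p = 0.0789).

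Ly6C-low cells were lower in Atp6v0d2 than Kupffer-niche cells by log2 -1.14 ± 0.26 (adjusted p = 0.00563), a call lost without replicate 2 of the Kupffer-niche cells (log2 -0.89, adjusted p = 0.051). They were higher than Ly6C-high cells by log2 1.64 ± 0.28 (adjusted p = 0.00205). Against the single count in blood, the ratio of Ly6C-high cells (117 counts) was 118-fold with a 95% exact binomial interval of 20.8 to 4718, and that of Kupffer-niche cells (794 counts) 801-fold with an interval of 143 to 31688. Both intervals cover counting error only. Atp6v0d1, the widely expressed d1 subunit gene, was not called in any of these comparisons by counts (141 to 204 CPM), and on the TPM scale it was called lower in Kupffer-niche cells than in blood (log2 -0.46).

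The 4 factor genes were expressed in every group over a narrower range than Gpnmb and Atp6v0d2. Tfec, whose expression is known to be concentrated in the macrophage lineage, separated the cells by gate. It stood at 94.4 and 81.8 CPM in control Kupffer cells, 75.0 and 63.8 CPM in NASH diet Kupffer cells and 59.7 and 60.3 CPM in Kupffer-niche cells. Ly6C-low cells held 11.5 and 10.3 CPM, Ly6C-high cells 16.5 and 18.2 CPM and blood monocytes 19.2 and 20.5 CPM. The 6 libraries with high F4/80 thus lay above the 6 others without overlap. Ly6C-low cells were lower than Kupffer-niche cells by log2 -2.46 ± 0.14 (adjusted p = 6.78e-07), and Kupffer-niche cells were higher than blood monocytes by log2 1.60 ± 0.13 (adjusted p = 1.84e-06). Ly6C-low cells were also lower than Ly6C-high cells (log2 -0.67 ± 0.14, adjusted p = 0.00563), a call lost without replicate 2 of the Ly6C-high cells (log2 -0.60, adjusted p = 0.0509). The dendritic cell markers Flt3, Zbtb46, Xcr1, Clec9a, Cd209a and Siglech summed to 317 to 351 CPM in Ly6C-low libraries against 44.5 to 105 CPM in the others of the set, and their part in this difference was not tested.

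Mitf, the factor of melanocytes and osteoclasts, was lowest in blood monocytes (23.4 and 34.0 CPM) and stood at 45.5 to 94.3 CPM in the liver groups. It was 53.8 and 45.5 CPM in Ly6C-high cells, higher than in blood by log2 0.80 ± 0.22 (adjusted p = 0.0113), a call lost without replicate 1 of the Ly6C-high cells (log2 0.66, adjusted p = 0.0746) or replicate 1 of blood (log2 0.54, adjusted p = 0.108). Kupffer-niche cells (60.2 and 75.4 CPM) were higher than blood by log2 1.25 ± 0.22 (adjusted p = 0.000534). Ly6C-low cells held 64.9 and 74.8 CPM, and control and NASH diet Kupffer cells 94.3 and 66.2 against 72.1 and 87.3 CPM, groups that overlap.

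Tfeb was higher in the Ly6C groups than in the cells of the Kupffer niche. It stood at 70.6 and 79.6 CPM in control Kupffer cells, 93.4 and 97.4 CPM in NASH diet Kupffer cells and 90.3 and 81.7 CPM in Kupffer-niche cells. Ly6C-low cells held 120.0 and 116 CPM, Ly6C-high cells 130.3 and 111 CPM and blood monocytes 109 and 93.9 CPM. Ly6C-low against Kupffer-niche cells gave log2 0.46 ± 0.12 (adjusted p = 0.0153), lost without replicate 2 of the Kupffer-niche cells (log2 0.38, adjusted p = 0.121) or replicate 1 of the Ly6C-low cells (log2 0.43, adjusted p = 0.0797). Kupffer-niche cells against blood gave log2 -0.24 ± 0.12 (adjusted p = 0.12), which was called on the TPM scale (log2 -0.46, adjusted p = 0.00856). Ly6C-high cells against blood gave log2 0.25 ± 0.12 (adjusted p = 0.114), which was called by DESeq2 (log2 0.34, adjusted p = 0.0394) and with RLE size factors (adjusted p = 0.0404).

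Tfe3 was highest in control Kupffer cells and lowest in blood monocytes. It stood at 284 and 268 CPM in control Kupffer cells, 225 and 214 CPM in NASH diet Kupffer cells and 211 and 192 CPM in Kupffer-niche cells. Ly6C-low cells held 175 and 157 CPM, Ly6C-high cells 180.0 and 156 CPM and blood monocytes 151 and 145 CPM. Ly6C-low against Kupffer-niche cells gave log2 -0.28 ± 0.11 (adjusted p = 0.0801). Kupffer-niche cells were higher than blood by log2 0.45 ± 0.11 (adjusted p = 0.00574), which was not called on the TPM scale (log2 0.21, adjusted p = 0.122).

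These calls read against all genes as follows. For Kupffer-niche against NASH diet Kupffer cells, 0 of the 6 members were called higher (background 0.333% of 14407 genes) and 1 lower (0.201%). This comparison shares libraries with the choice of the 6 genes. For Ly6C-low against Kupffer-niche cells, 1 was higher (15.3%) and 2 were lower (18.1%). For Ly6C-low against Ly6C-high cells, 1 was higher (11.6%) and 1 lower (14%). Against blood monocytes, 3 members were higher in Ly6C-high cells (27.3%) with 0 lower (21.3%), and 5 were higher in Kupffer-niche cells (34%) with 0 lower (26.5%). These comparisons share libraries and are not independent of one another. In the Ly6C-high libraries the 6 hepatocyte markers in the table summed to 1302 to 3589 CPM and the 7 stellate cell markers to 602 to 730.4 CPM. The 6 hepatocyte markers were all at 0 in blood and the stellate markers summed to at most 3.34 CPM there. Their part in the differences from blood was not tested.

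In the time course Gpnmb was called higher than week 0 at every time on the diet. In CPM most of the difference came between 10 and 20 weeks, while on the log2 scale it was spread over weeks before and after 10. It stood at 0.813, 0.937 and 1.21 CPM at week 0, at 6.98 and 10.6 CPM at week 1, and at 37.3 and 8.72 CPM at week 4. At week 10 the libraries held 83.2, 61.7 and 24.3 CPM, at week 20 1661, 812 and 1683 CPM and at week 30 1755, 1572, 1354 and 1733 CPM. No library on the diet reached down to week 0, weeks 1 and 4 overlapped, weeks 4 and 10 overlapped, and the libraries of weeks 20 and 30 all lay above those of week 10. Against week 0 the differences were log2 3.17 ± 0.62 (SE, adjusted p = 0.00248) at week 1, 4.55 ± 0.61 (adjusted p = 0.000473) at week 4 and 5.84 ± 0.59 (adjusted p = 2.79e-05) at week 10. They were log2 10.46 ± 0.66 (adjusted p = 5.27e-08) at week 20 and 10.67 ± 0.66 (adjusted p = 3.78e-08) at week 30. The value at week 4 depends on its 2 unlike libraries, with log2 3.13 without replicate 1 and 5.24 without replicate 2.

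Atp6v0d2 was first called at week 10. Its levels were 0.813, 0.995 and 1.45 CPM at week 0, 1.59 and 2.36 CPM at week 1, and 3.91 and 0.948 CPM at week 4. They were 19.5, 12.1 and 2.18 CPM at week 10, 107, 54.2 and 135 CPM at week 20, and 195, 94.6, 117 and 135 CPM at week 30. In each week up to 20 the library with the lowest Gpnmb was also the one with the lowest Atp6v0d2. The differences from week 0 were log2 0.90 ± 0.80 at week 1 (adjusted p = 0.504) and 1.18 ± 0.87 at week 4 (adjusted p = 0.446, and log2 -0.19 without replicate 1 of week 4). The later ones were log2 3.38 ± 0.66 at week 10 (adjusted p = 0.00283, and log2 2.71 without replicate 1 of week 10), 6.51 ± 0.68 at week 20 (adjusted p = 4.98e-06) and 6.97 ± 0.68 at week 30 (adjusted p = 2.15e-06).

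**Figure D2:**
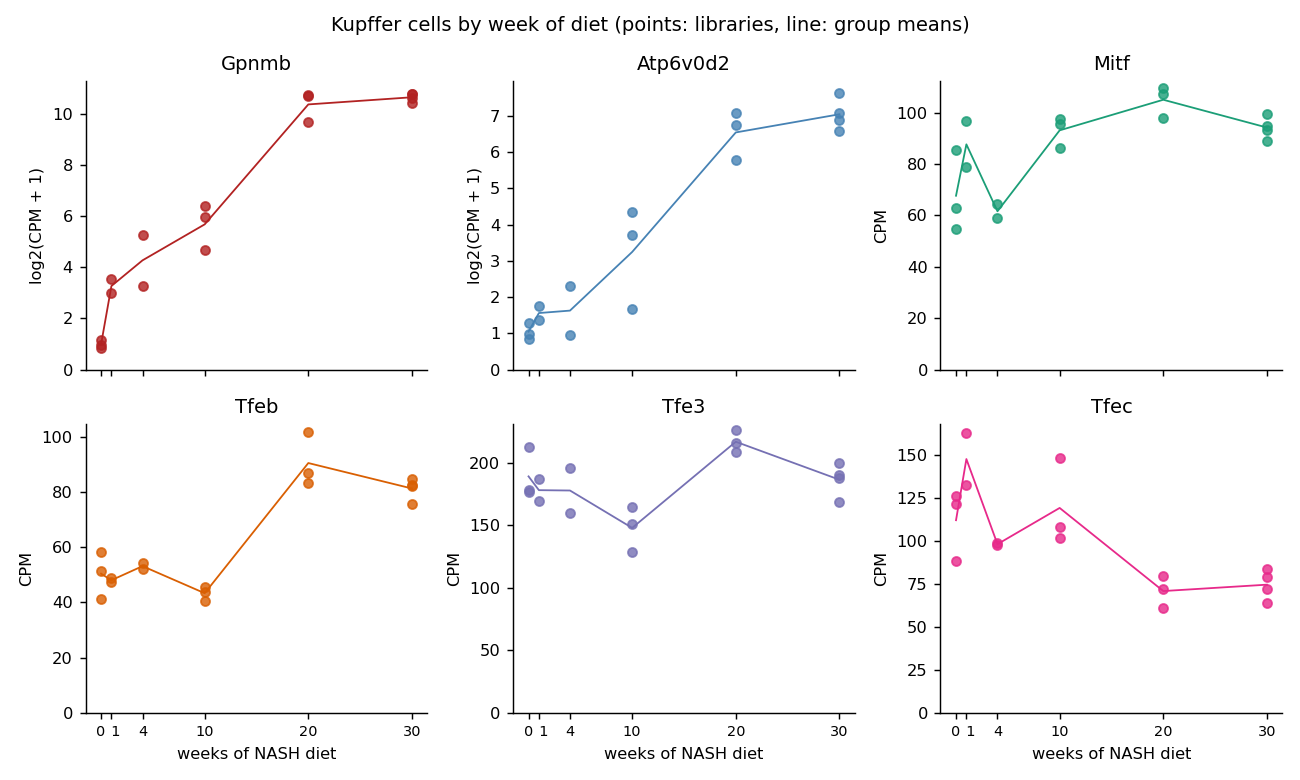
The 6 genes in the 17 Kupffer cell libraries against weeks of NASH diet (0 is control diet), 1 point a library and a line through group means, with log2(CPM + 1) for Gpnmb and Atp6v0d2 and CPM for the factors. Gpnmb and Atp6v0d2 reach their high levels at 20 and 30 weeks, where Tfeb is also above week 10 (75.8 to 102 against 40.7 to 45.7 CPM) and Tfec below it (60.8 to 83.4 against 102 to 148 CPM).

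Tfeb was not called up to week 10 and was higher after it. It stood at 41.4, 51.6 and 58.4 CPM at week 0, 47.4 and 48.8 CPM at week 1, 52.1 and 54.3 CPM at week 4 and 43.7, 40.7 and 45.7 CPM at week 10. It reached 86.9, 83.2 and 102 CPM at week 20 and 82.3, 82.8, 75.8 and 84.6 CPM at week 30. Every library of weeks 20 and 30 lay above every earlier one. The differences from week 0 were log2 0.84 ± 0.12 at week 20 (adjusted p = 0.000101) and 0.69 ± 0.12 at week 30 (adjusted p = 0.00033). At week 10 it was log2 -0.22 ± 0.12 (adjusted p = 0.232), which was called without replicate 1 of week 0 (log2 -0.34, adjusted p = 0.0465).

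Tfec went the other way. Its levels were 88.5, 126 and 122 CPM at week 0, 163 and 132 CPM at week 1, 97.7 and 98.6 CPM at week 4 and 108, 102 and 148 CPM at week 10. They were 72.0, 79.8 and 60.8 CPM at week 20 and 63.8, 83.4, 79.2 and 71.7 CPM at week 30, below every earlier library. Against week 0 Tfec fell by 0.66 on the log2 scale at week 20 (SE 0.17, adjusted p = 0.00686) and by 0.59 at week 30 (SE 0.16, adjusted p = 0.00928).

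Mitf and Tfe3 gave smaller differences. Mitf stood at 85.2, 54.7 and 63.0 CPM at week 0, 96.6 and 78.7 CPM at week 1 and 64.3 and 58.9 CPM at week 4. It stood at 95.5, 86.0 and 97.6 CPM at week 10, 107, 109.5 and 98.0 CPM at week 20 and 94.9, 93.2, 99.6 and 89.0 CPM at week 30. It was called higher than week 0 at week 10 (log2 0.46 ± 0.14, adjusted p = 0.03), week 20 (0.63 ± 0.14, adjusted p = 0.0025) and week 30 (0.48 ± 0.13, adjusted p = 0.0114). None of the 3 calls held on the TPM scale (adjusted p = 0.0646, 0.0605 and 0.332). Mitf gave log2 0.43, 0.38 and 0.18 there, where the medians over all genes were -0.030, -0.184 and -0.230. The call at week 10 was also lost without replicate 2 or 3 of week 0 or replicate 1 or 3 of week 10 (log2 0.33 to 0.44, adjusted p = 0.0712 to 0.139). The call at week 30 was lost without replicate 2 (log2 0.34, adjusted p = 0.0661) or replicate 3 (log2 0.43, adjusted p = 0.0553) of week 0. At week 1 Mitf was called only without replicate 1 of week 0 (log2 0.57, adjusted p = 0.00885).

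Tfe3 held 178, 176 and 213 CPM at week 0, 187 and 169 CPM at week 1, 196 and 159.8 CPM at week 4 and 128, 164 and 151 CPM at week 10. It held 216, 226 and 209 CPM at week 20 and 190.1, 199, 168 and 188 CPM at week 30. Its value at week 10 (log2 -0.35 ± 0.12, adjusted p = 0.0486) was the only one called against week 0. It was not called with RLE size factors (adjusted p = 0.0515), without the filter on low counts (adjusted p = 0.0631), in a fit of the 6 libraries alone (adjusted p = 0.134) or without replicate 2 or 3 of week 0 or replicate 1 or 3 of week 10 (log2 -0.40 to -0.26, adjusted p = 0.0642 to 0.198). At week 30 the TPM scale gave a call (log2 -0.32, adjusted p = 0.0204) that the counts did not (log2 -0.02). The median over all genes on the TPM scale was log2 -0.230 at that week.

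The counts of members called against week 0 were 1 higher (background 9.42% of 14552 genes) and 0 lower (6.56%) at week 1, and 1 higher (5.55%) and 0 lower (2.99%) at week 4. They were 3 higher (11.5%) and 1 lower (7.63%) at week 10, 4 higher (18.2%) and 1 lower (16.6%) at week 20 and 4 higher (15.5%) and 1 lower (15%) at week 30. These 5 comparisons share the 3 libraries of week 0. The 6 genes were chosen on a diet contrast of the same kind, with earlier results of these data known. Their counts here are therefore descriptions and no independent result.

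Comparisons of neighbouring weeks were added after the levels were seen. Between 10 and 20 weeks, 4 members were higher (20.4% of 14552 genes) and 1 was lower (20.7%). Gpnmb rose by log2 4.62 ± 0.49 (adjusted p = 4.95e-06), Atp6v0d2 by 3.13 ± 0.54 (adjusted p = 0.000319, and 3.80 without replicate 1 of week 10), Tfeb by 1.06 ± 0.12 (adjusted p = 1.07e-05) and Tfe3 by 0.55 ± 0.12 (adjusted p = 0.00184). Tfec fell by 0.75 on the log2 scale (SE 0.17, adjusted p = 0.00233). Between 20 and 30 weeks 0 members were called in either direction. There edgeR called 0 of 14552 genes (0% higher and 0% lower), with 2039 at an unadjusted p under 0.05 and 177 called by DESeq2. Between 1 and 4 weeks 0 members were higher (3.82%) or lower (3.5%). Gpnmb differed there by log2 1.38 (adjusted p = 0.15), and by 2.07 (adjusted p = 0.0464) and -0.02 without replicate 2 and replicate 1 of week 4.

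Between 4 and 10 weeks 1 member was higher, Mitf (log2 0.60 ± 0.16, adjusted p = 0.0255; background 5.94%), and 0 were lower (5.46%). Mitf lost that call without replicate 1 or 3 of week 10 or either library of week 4 (log2 0.53 to 0.64, adjusted p = 0.0506 to 0.194). Gpnmb (log2 1.29, adjusted p = 0.109) was called without replicate 3 of week 10 (log2 1.65, adjusted p = 0.0347) or replicate 1 of week 4 (log2 2.67, adjusted p = 0.0293). Atp6v0d2 (log2 2.20, adjusted p = 0.0654) was called by DESeq2 (adjusted p = 0.0324) and without replicate 3 of week 10 (log2 2.69, adjusted p = 0.011).

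The libraries differ with week in other cells' transcripts as well. The summed hepatocyte markers were 39.8 to 133 CPM at week 0, 2847 to 4438 at week 1, 1512 to 1798 at week 4, 530.3 to 2646 at week 10, 142 to 803 at week 20 and 217 to 841 at week 30. The stellate markers summed to 30.7 to 61.6 CPM at week 0, 169 to 335 at week 10, 83.1 to 286 at week 20 and 113 to 331 at week 30. The sum of the 5 Kupffer cell markers was 18618 to 24587 CPM at week 0, 19485 to 25632 at week 10 and 13975 to 18911 at weeks 20 and 30. Their part in the changes of the 6 genes was not tested. The labels used here give no date of preparation for the libraries. Week 0 is the only control diet group of the time course. Time on the diet therefore cannot be told apart from age of the mice or date of preparation.

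Per length, in the deposited TPM, Tfe3 was followed by Tfeb, Tfec and Mitf in that order in 23 of the 57 libraries, most of them whole livers. Tfe3 was followed by Tfec, Tfeb and Mitf in 11 libraries, all of Kupffer cells. Other orders were found by cell and week. In control Kupffer cells of the population set Tfe3 made up 45.7% to 46.7% of the summed TPM of the 4 factors, Tfec 26.2% to 28.1%, Tfeb 16.0% to 19.4% and Mitf 7.69% to 10.2%. In NASH diet Kupffer cells Tfeb (24.2% to 26.0%) and Tfec (22.3% to 25.4%) overlapped. In Ly6C-low cells Tfeb reached 41.3% to 42.0% and Tfec 4.87% to 5.17%, and in blood monocytes Tfeb was 39.1% to 43.0% and Tfec 9.99% to 11.2%. In the time course Tfec was 35.8% to 44.8% at week 0 and 40.1% to 49.4% at week 10, and 21.2% to 26.1% at week 20 and 24.2% to 29.96% at week 30. Tfeb went from 12.7% to 14.6% at week 0 to 20.8% to 27.0% at week 20. The 2 control groups differed here, since the share of Tfec in control Kupffer cells was lower in the population set than at week 0 of the time course. These shares describe the libraries and were not tested.

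**Figure D3:**
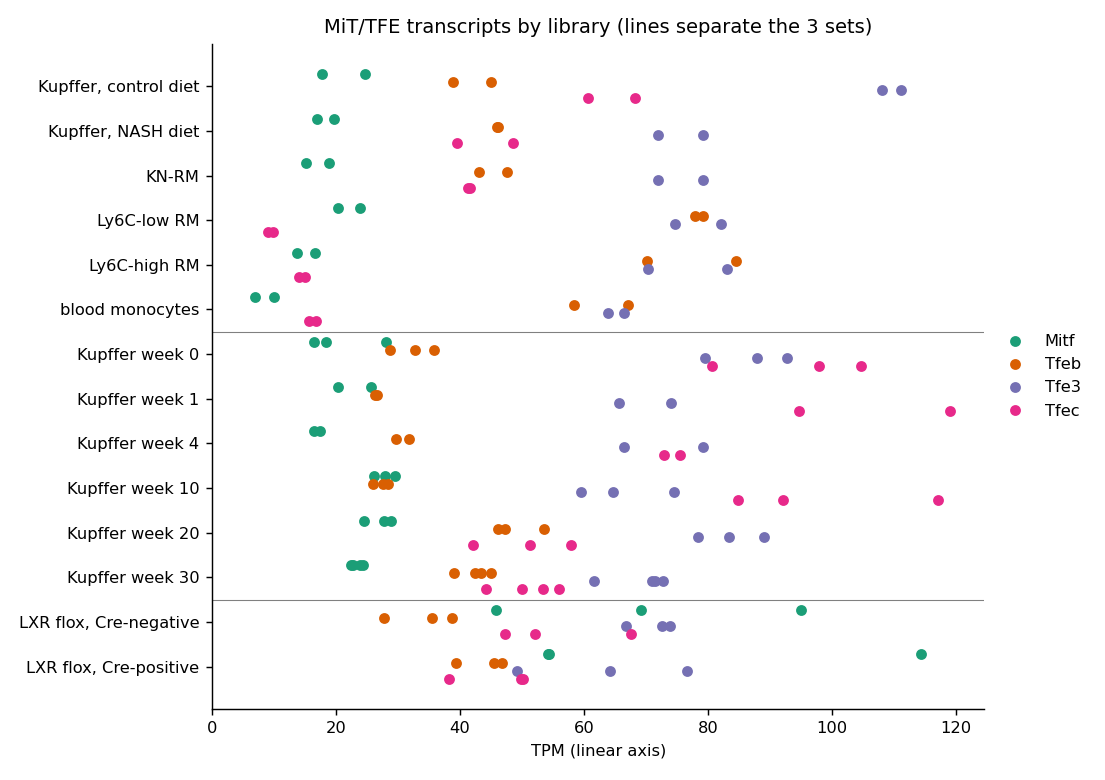
TPM of Mitf, Tfeb, Tfe3 and Tfec (linear axis) in each library of the 3 sorted sets, 1 point a library (KN-RM, Kupffer-niche cells). Tfec lies at 39.6 to 119 TPM in all Kupffer cell libraries and at 9.04 to 16.7 TPM in the Ly6C groups and blood monocytes, where Tfeb lies at 58.4 to 84.5 TPM.

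The d subunit transcripts can be set side by side in the same way. Atp6v0d2 made up 0.237% to 0.269% of the summed TPM of Atp6v0d1 and Atp6v0d2 in control Kupffer cells and 15.3% to 22.4% in NASH diet Kupffer cells. The share was 7.52% to 10.5% in Kupffer-niche cells, 4.53% to 5.08% in Ly6C-low cells, 1.17% to 1.47% in Ly6C-high cells and at most 0.0151% in blood. In the time course it was 0.392% to 0.665% at week 0, 0.949% to 8.61% at week 10, 15.5% to 32.0% at week 20 and 22.4% to 40.1% at week 30. So d1 remained the more abundant d subunit transcript in every sorted library. Atp6v0d1 itself was called higher at week 20 (log2 0.45 ± 0.09, adjusted p = 0.00144) and week 30 (0.50 ± 0.09, adjusted p = 0.000426), and neither call held on the TPM scale (log2 0.19 and 0.18). The medians over all genes on that scale were log2 -0.184 and -0.230.

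Genes around the members were followed through 5 lists, each of which leaves the 6 members out. All 5 lists were written with earlier results of these data known, so their counts are descriptions and no independent result. Their counts are to be read against the shares of all genes called. For all 5 lists these were 18.2% higher and 16.6% lower at week 20, and 15.5% and 15% at week 30. The V-ATPase list holds 24 subunit genes, of which 19 were tested in the population set and 20 in the time course. At week 20, 7 of 20 were higher and 1 was lower (6 and 3 on the TPM scale), with a median log2 of 0.22 against 0.00 over all genes. At week 30, 8 were higher and 0 lower (6 and 5 on the TPM scale), with a median of 0.35. Atp6v0c, the ring subunit that carries protons, rose at week 20 from 36.0 ± 8.60 to 239.7 ± 118 CPM (SD, n = 3 each, log2 2.74 ± 0.27 SE, adjusted p = 3.1e-06). The a subunits Atp6v0a1 (log2 1.84 ± 0.19, adjusted p = 3.66e-06) and Tcirg1, the a3 subunit of osteoclasts and macrophages (711 ± 75.0 to 1583 ± 91.3 CPM, log2 1.15 ± 0.13, adjusted p = 1.15e-05), also rose. Atp6v1g1 was the gene that fell (29.2 ± 5.52 to 9.02 ± 3.59 CPM, log2 -1.71 ± 0.28, adjusted p = 0.000247).

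In the population set the background for Ly6C-low against Kupffer-niche cells was 15.3% higher and 18.1% lower. For Kupffer-niche cells against blood it was 34% and 26.5%. For the diet in Kupffer cells it was 11.2% higher and 9.56% lower, from which nothing is read for the members. Of 19 V-ATPase genes, 6 were higher and 0 lower there (3 and 2 on the TPM scale, and 2 to 3 higher without any of the 4 libraries), among them Atp6v0a1 (135 ± 36.2 to 380.0 ± 75.6 CPM, log2 1.49 ± 0.20, adjusted p = 0.000635). In Ly6C-low against Kupffer-niche cells 1 was higher and 8 were lower (2 and 4 on the TPM scale, and 4 and 5 lower without replicate 2 and replicate 1 of the Kupffer-niche cells), with Atp6v1f (log2 -1.05 ± 0.16, adjusted p = 0.000598) and Atp6v0b (log2 -0.73 ± 0.13, adjusted p = 0.0016) lower and Atp6v0a2 (log2 0.74 ± 0.11, adjusted p = 0.000385) higher. Against blood monocytes 8 were higher and 2 lower in Kupffer-niche cells (5 and 4 on the TPM scale, and 0 to 1 lower with any of the 4 libraries left out), led by Atp6v0a1 (log2 2.16 ± 0.20, adjusted p = 4.61e-06).

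The CLEAR list holds 28 lysosome and autophagy genes known as TFEB targets, all tested. At week 20, 18 were higher and 0 lower (11 and 2 on the TPM scale, and 12 higher without replicate 1 of week 20), with a median log2 of 0.48, and at week 30, 16 and 0 (10 and 1 on the TPM scale), with a median of 0.52. Cd63, a tetraspanin of late endosomes, rose at week 20 from 0.512 ± 0.189 to 56.8 ± 29.2 CPM (log2 6.80 ± 0.64, adjusted p = 2.08e-06). Gla (alpha-galactosidase A) rose by log2 1.92 ± 0.31 (adjusted p = 0.000233), and Psap, the precursor of the saposins that help break down sphingolipids, from 4991 ± 669 to 12801 ± 1919 CPM (log2 1.36 ± 0.16, adjusted p = 1.41e-05). Galns, a sulfatase of glycosaminoglycans, rose by log2 1.59 ± 0.18 at week 30 (adjusted p = 9.95e-06). Up to week 10 few of these genes were called, with 1, 2 and 2 higher and 0, 0 and 3 lower at weeks 1, 4 and 10. Of all genes, 9.42%, 5.55% and 11.5% were higher and 6.56%, 2.99% and 7.63% lower at these weeks.

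Between populations the CLEAR genes were called mostly in 1 direction. All genes gave 15.3% higher and 18.1% lower for Ly6C-low against Kupffer-niche cells. They gave 34% and 26.5% for Kupffer-niche cells against blood. In Ly6C-low against Kupffer-niche cells 0 were higher and 17 of 28 lower, with a median log2 of -0.48 (3 and 9 on the TPM scale, and 10 lower without replicate 1 of the Kupffer-niche cells). The cathepsin genes Ctsf (8.53 ± 0.124 against 80.7 ± 8.04 CPM, log2 -3.24 ± 0.15, adjusted p = 3.04e-07), Ctsd (log2 -1.61 ± 0.14, adjusted p = 1.13e-05) and Ctsb (log2 -1.19 ± 0.13, adjusted p = 6.93e-05) led them. Kupffer-niche cells had 18 higher and 3 lower than blood monocytes (18 and 4 on the TPM scale), with a median log2 of 0.92 against 0.09 over all genes. For the diet in Kupffer cells of the population set the counts were 8 higher and 3 lower (6 and 7 on the TPM scale), with 11.2% and 9.56% of all genes. Against NASH diet Kupffer cells, 1 gene was lower in Kupffer-niche cells, Ctsd (log2 -0.79, adjusted p = 0.0335), and that call was lost without each of the 4 libraries.

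The control list holds 23 genes that act on the factors: mTORC1, its Rag and Ragulator anchors on the lysosome, the folliculin complex, calcineurin and MCOLN1. At week 20, 9 of 22 tested were higher and 2 lower (5 and 5 on the TPM scale), and at week 30, 5 and 1 (2 and 6 on the TPM scale, and 3 and 0 without replicate 2 or replicate 4 of week 30). Rragd, a Rag GTPase gene that is itself a known target of these factors, rose from 1.75 ± 0.138 to 9.11 ± 1.06 CPM (log2 2.37 ± 0.24, adjusted p = 3.56e-06). Fnip2, a folliculin partner, rose by log2 1.23 ± 0.19 (adjusted p = 0.00019) and Rptor, the raptor subunit of mTORC1, by 0.91 ± 0.15 (adjusted p = 0.000223). The Ragulator gene Lamtor3 (log2 -0.66 ± 0.17, adjusted p = 0.00725) and the calcineurin gene Ppp3cb (log2 -0.63 ± 0.15, adjusted p = 0.00465) fell. All genes gave 15.3% higher and 18.1% lower in Ly6C-low against Kupffer-niche cells. Of the control list 5 were higher and 6 lower there (10 and 3 on the TPM scale). These were 0 and 3 without replicate 1 and 1 and 5 without replicate 2 of the Kupffer-niche cells, and 1 and 5 and 4 and 3 without replicates 1 and 2 of the Ly6C-low cells. Among the lower genes Lamtor2 stood at 7.62 ± 0.715 against 46.6 ± 0.548 CPM (log2 -2.62 ± 0.34, adjusted p = 0.000188).

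**Figure D4:**
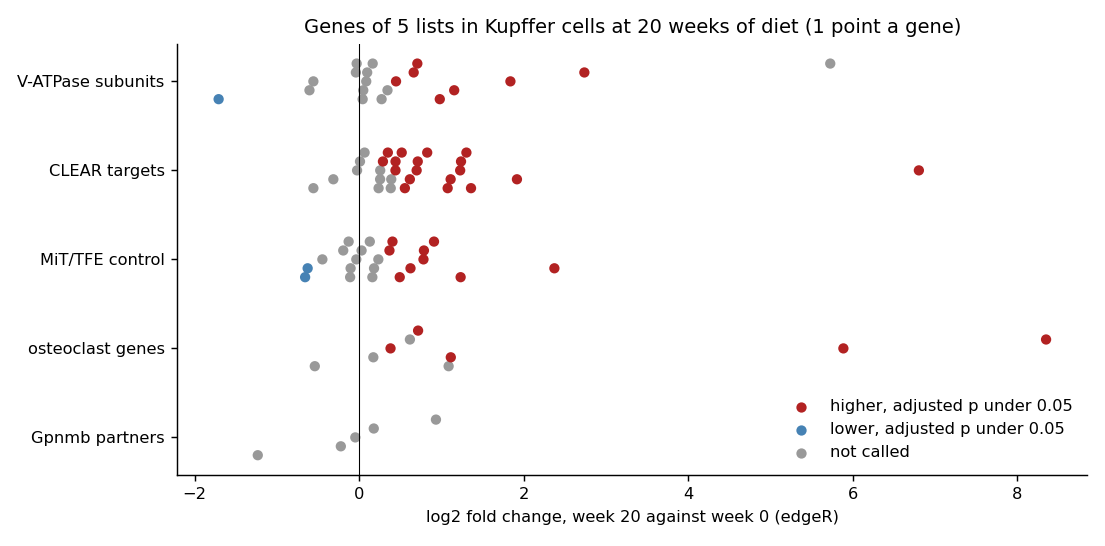
The log2 difference between week 20 and week 0 in Kupffer cells (edgeR) for the genes of the 5 lists, 1 point a gene, colored by call. In the CLEAR list, written with earlier results of these data known, 18 of 28 genes were called higher and 0 lower. The 2 points farthest to the right in the V-ATPase and osteoclast rows, Atp6v0a4 and Dcstamp, have almost no counts at week 0, so their size is not fixed.

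The osteoclast list holds 12 genes that are used with Atp6v0d2 in bone-resorbing cells, of which 9 were tested. At week 20, 5 were higher and 0 lower (4 and 0 on the TPM scale) and at week 30, 4 and 0 (3 and 1 on the TPM scale). Dcstamp and Ocstamp, which encode membrane proteins needed for cell fusion, were at 0.0151 ± 0.0261 and 0.493 ± 0.229 CPM at week 0 and at 8.07 ± 3.05 and 29.04 ± 5.12 CPM at week 20 (Ocstamp log2 5.89 ± 0.58, adjusted p = 3.24e-06). Acp5, tartrate-resistant acid phosphatase, rose from 601 ± 121 to 1301 ± 28.0 CPM (log2 1.11 ± 0.17, adjusted p = 0.000129). Acp5 was higher in Kupffer-niche cells than in blood (1185 ± 240.4 against 21.1 ± 0.146 CPM, log2 5.81 ± 0.23, adjusted p = 5.1e-09), as was Tnfrsf11a, the receptor RANK (log2 2.82 ± 0.14, adjusted p = 2.69e-08). Itgb3, the beta3 integrin, went the other way (log2 -2.74 ± 0.43, adjusted p = 0.000217), and so did Nfatc1 (log2 -1.13 ± 0.12, adjusted p = 1.27e-05).

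Of the 5 genes of proteins that bind or cleave GPNMB, or are related to it, 0 were called at week 20 and 1 was higher at week 30 (1 and 4 lower on the TPM scale). That gene was Sdc4, the syndecan-4 that GPNMB binds on T cells (24.8 ± 8.05 to 67.9 ± 20.2 CPM, log2 1.45 ± 0.37, adjusted p = 0.00736). Sdc4 was also higher in Kupffer-niche cells than in blood monocytes (log2 4.65 ± 0.46, adjusted p = 6.55e-06).

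Across the 29 libraries of the population set and the time course, the genes closest to Gpnmb in log2(CPM + 1) were Cd63 (Pearson r = 0.979), Synj2 (0.972), Slc6a8 (0.967), Anpep (0.964) and Cd276 (0.960). Those closest to Atp6v0d2 were Vsig8 (0.966), Slc6a8 (0.966), Htra4 (0.965), Chst11 (0.961) and Trim29 (0.957), so Slc6a8, a creatine transporter gene, is among the 5 closest of both. Gpnmb and Atp6v0d2 correlated at r = 0.905, which placed Atp6v0d2 at rank 39 of 12830 genes for Gpnmb. The closest genes of the factors were Cd36 for Mitf (0.912), Frmd8 for Tfeb (0.967), Phc2 for Tfe3 (0.863) and Snx25 for Tfec (0.978). Between Gpnmb and the factors r was 0.376 for Mitf, 0.572 for Tfeb, 0.081 for Tfe3 and -0.279 for Tfec. Within the 17 time course libraries it was 0.800 for Tfeb and -0.791 for Tfec. The points share groups, gates and libraries, so these values are descriptions.

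In the LXR set none of the 6 genes was called between libraries labelled Clec4f-cre positive and negative. Of 11480 genes 0.174% were called higher and 0.0348% lower (24 in all, against 947 at an unadjusted p under 0.05 and 232 by DESeq2, which split 161 higher to 71 lower). Gpnmb stood at 269.5, 146 and 149.9 CPM in Cre-negative and 337, 212 and 177 CPM in Cre-positive libraries (log2 0.36 ± 0.30, adjusted p = 0.877). Atp6v0d2 stood at 14.1, 10.2 and 10.2 against 9.02, 8.61 and 2.41 CPM, with no overlap and log2 -0.79 ± 0.49 (adjusted p = 0.779). These rest on 38 to 43 counts a library in the negative and 10 to 43 counts in the positive group. Mitf was 248, 118 and 178 against 278, 146 and 138 CPM, Tfeb 34.5, 47.6 and 43.3 against 45.5, 59.8 and 55.1 CPM, Tfe3 117, 125 and 127 against 79.9, 138 and 109 CPM, and Tfec 49.3, 44.2 and 63.0 against 44.3, 48.6 and 35.4 CPM. The groups overlapped for all of these factors. Mitf made up 22.4% to 45.2% of the summed TPM of the factors in these 6 libraries, against 8.24% to 10.8% in the Kupffer-niche cells of the population set, which were sequenced as a separate set and not tested against them.

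The floxed genes themselves were not lower in the libraries labelled Cre-positive. Nr1h3 (LXR alpha) stood at 247, 282 and 307 CPM in negative and 187, 451 and 298 CPM in positive libraries (log2 0.17, adjusted p = 0.949). Nr1h2 (LXR beta) stood at 51.1, 33.3 and 36.6 against 61.1, 82.5 and 64.5 CPM (log2 0.79, adjusted p = 0.261). Counts over all exons of a transcript do not show whether a floxed exon is missing. The Kupffer cell markers summed to 2317 to 3169.8 CPM in negative and 1149 to 7918 CPM in positive libraries, and their part in these values was not tested.

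In whole liver none of the 6 genes was called between DTR-positive and DTR-negative mice, where edgeR called 0 of 12682 genes (0% higher and 0% lower; 477 at an unadjusted p under 0.05, and 0 by DESeq2). Gpnmb had a lowest, median and highest level of 16.1, 479 and 693 CPM in the 10 negative and 8.03, 520.3 and 724 CPM in the 12 positive livers (log2 0.09 ± 0.59, adjusted p = 1.00). Atp6v0d2 ran at 4.86, 36.4 and 44.4 against 2.53, 34.0 and 45.2 CPM (log2 0.03 ± 0.41, adjusted p = 1.00). The factors varied far less between livers, with Tfeb at 9.72 to 17.5 CPM and Tfe3 at 36.4 to 56.7 CPM over all 22. Mitf ran from 5.52 to 12.4 CPM and Tfec from 1.90 to 6.77 CPM. The 5 Kupffer cell markers summed to 253 to 705 CPM in negative and 199 to 513 CPM in positive livers. Clec4f alone ran from 1.37 to 118 CPM in negative and 3.37 to 140 CPM in positive livers. The genotype labels thus do not separate the livers by these markers.

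The livers fell into clusters of Gpnmb level, read from gaps of more than 1 on the log2 scale after the values were seen. Negative livers held 1 at 16.1 CPM, 3 at 164 to 203 CPM and 6 at 445 to 693 CPM. Positive livers held 1 at 8.03 CPM, 2 at 17.9 to 22.2 CPM and 9 at 475 to 724 CPM. Atp6v0d2 was low and high in the same livers, with 2.53 to 5.79 CPM in the 4 lowest livers, 11.2 to 17.1 CPM in the 3 between and 32.3 to 45.2 CPM in the 15 highest. Trem2, a lipid receptor of macrophages, stood at 2.75 to 5.08 CPM in the 4 lowest and at 44.3 to 62.4 CPM in the 15 highest, and Cd68, a lysosomal protein of macrophages, at 18.8 to 31.1 against 107 to 136 CPM. Of the factors, Mitf stood at 5.52 to 5.94 CPM in the 4 lowest and at 6.44 to 12.4 CPM in the 15 highest. Tfeb stood at 9.72 to 11.98 against 12.28 to 17.5 CPM. Neither gene overlapped between these livers. Tfe3 (36.4 to 48.9 against 39.0 to 55.4 CPM) and Tfec (1.90 to 3.44 against 2.85 to 6.77 CPM) did overlap. No correlation is therefore given over a whole genotype group, and the factors were not among the relations tested. Within the 9 high positive livers Gpnmb and Atp6v0d2 gave r = 0.890 (exact permutation p = 0.0015, two-sided, adjusted over 10 relations 0.015) and rho = 0.80 (exact permutation p = 0.0138, adjusted 0.138), with r = 0.700 without the 2 livers farthest from the median. Within the 6 high negative livers r was 0.664 (exact permutation p = 0.163, adjusted 0.317) and rho 0.486 (exact permutation p = 0.356, adjusted 0.593), with r = 0.600 without the 2 farthest livers. Of the 10 relations with Atp6v0d2, Trem2, Cd68, Clec4f and Col1a1 the first r was the only value past 0.05 after adjustment. On log2(TPM + 1), Cd68 in the 9 high positive livers passed as well (r = 0.847, exact permutation p adjusted 0.0103).

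**Figure D5:**
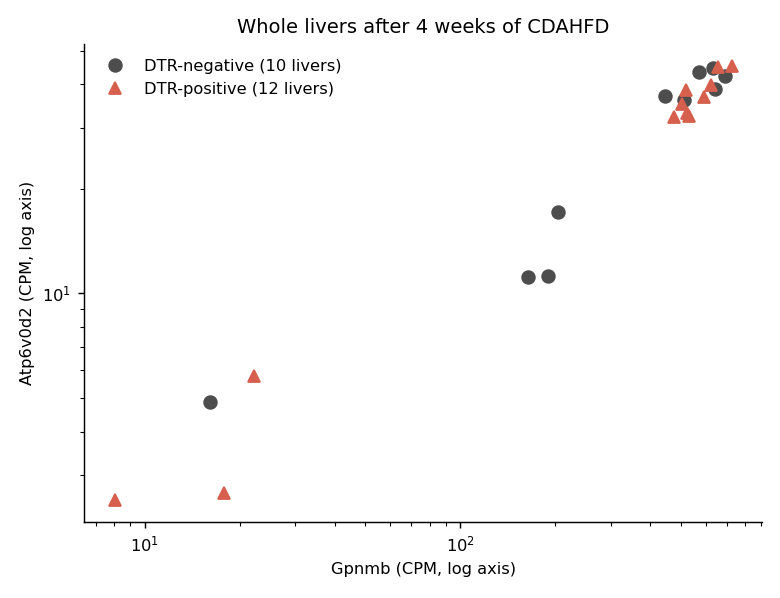
Atp6v0d2 against Gpnmb in 22 whole livers, both in CPM on log axes, with DTR-negative livers as circles and DTR-positive livers as triangles. Livers of both genotypes are among the 4 lowest (8.03 to 22.2 CPM of Gpnmb) and among the 15 highest (445 to 724 CPM).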

How the data were processed

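Per the file headers, the authors deposited raw counts and TPM of 40458 RefSeq transcripts (mm10), made with HOMER's analyzeRepeats from reads in exons. The deposited counts are not normalized, and the authors' TPM values are scaled for transcript length and depth. The submitters' processing notes also name STAR and DESeq2, with neither a version nor a role, and strand handling is not given in the sources used here. Liver was digested with 1 µM flavopiridol, a transcription blocker, per the labels' protocols, and every value column matched a library title.

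For each of 24941 symbols the transcript with most counts over all libraries was used, since 7630 symbols have more than 1 transcript. Each set was fitted on its own, with all its groups, by the quasi-likelihood test of edgeR 4.0.16 (R 4.3.3), two-sided, after TMM scaling and filterByExpr (minimum count 10, minimum total 15). P-values were adjusted by Benjamini-Hochberg over the genes of the set, and under 0.05 counted as called. Alternatives were DESeq2 1.42.0, RLE size factors, limma 3.58.1 on log2(TPM + 1), no filter, a replicate block, fits of only the groups compared, the transcript with the highest TPM, and each replicate left out. The log2(TPM + 1) scale understates changes of low genes. Correlations across livers used log2(CPM + 1) and exact two-sided permutation tests over all orders, in place of the resampling that was planned for whole genotype groups. The test was also checked on simulated data.

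The labels do not say that replicates are separate animals, so p-values measure the spread between these libraries, which may be technical. No 2 replicates were the same library (chi-square per degree of freedom 5.30 to 85.7 over 140 pairs). From each list the text names called genes of the largest change, at most 3 in each direction, with Atp6v0d1 always, and for each member the 5 genes, or the first of them, with the highest r among genes with a mean of at least 1 CPM. Trem2, Cd68 and Atp6v0a4 are named beside these. The members and lists were chosen with earlier results of these data known. Marker lists of other cells were given as summed CPM. One gene of the lists is not reported by name here.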

Additional observations from a re-analysis of the deposited data

Results flagged for a closer look

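In Kupffer cells the difference from week 0 changed between 10 and 20 weeks for 5 of the 6 genes. It is the edgeR comparison of week 20 with week 10 given above, added after the levels were seen, and not a second result. The changes were log2 4.62 for Gpnmb, 3.13 for Atp6v0d2, 1.06 for Tfeb, 0.55 for Tfe3 and -0.75 for Tfec. Between 4 and 10 weeks the difference from week 0 changed for Mitf, by log2 0.60. That call was lost without replicate 1 or 3 of week 10. The value was log2 0.64 and 0.53 without replicates 1 and 2 of week 4. In the 12 groups of values looked at for a single library far from the others (the 6 genes in the 4 libraries of week 30 and in the 10 DTR-negative livers), Dixon's 95% limit was passed in 0, where chance passes it in about 5% of groups.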

How the results depend on the processing

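Of the values recomputed under the alternatives, 3167 kept their direction and their side of the threshold, 431 lost and 20 gained a call in the same direction, 46 moved, and 0 changed sign with a call. The cause was not tested. For Kupffer-niche against NASH diet Kupffer cells, 77 called genes became 262 by DESeq2, 257 without the filter, 152 with a replicate block, 48 when the 2 groups were fitted alone (Atp6v0d2 log2 -1.47, no longer called) and 10 to 33 with a replicate left out (Atp6v0d2 -1.76 to -1.08). In the LXR set 24 became 232 by DESeq2, 2 on the TPM scale, 273 without the filter, 112 with a replicate block and 0 to 81 with a replicate left out. The block moved no other count by more than 1.5 times. It also called Tfe3 in Ly6C-low against Kupffer-niche cells (log2 -0.28, adjusted p = 0.0491) and lost Tfe3 at week 10 (log2 -0.35, adjusted p = 0.0869), and changed no other call of the 6 genes. The labels do not say that the replicate numbers pair the libraries, and over each whole set same-numbered libraries deviated together in only some pairs. The correlation was 0.288 to 0.494 among the 4 liver groups of the NASH diet in the population set (with 2 libraries a group both numbers give 1 value), where every pair was over 0.1. Over whole sets it ran wider (-0.083 to 0.494 in the population set, -0.193 to 0.266 in the time course, -0.030 to 0.232 in the LXR set and -0.390 to 0.778 in whole liver). On the TPM scale the diet difference in the population set was log2 7.44 for Gpnmb and 4.50 for Atp6v0d2, and Gpnmb with Cd68 in DTR-positive livers gave r = 0.847. Gpnmb in Ly6C-low against Ly6C-high cells was called without the filter (0.82). With only the 2 groups fitted, 1492 genes were called at week 1 (2325 otherwise) and 1228 at week 10 (2786). DESeq2 called 1709 for week 4 against 1 (1065 by edgeR) and 177 for week 30 against 20 (0), and Atp6v0d2 for week 10 against 4 (2.20). With a replicate left out, counts of called genes ran from 846 to 2031 for the diet in the population set (2988), 2851 to 3607 for Ly6C-low against Kupffer-niche cells (4804; Atp6v0d2 -1.34 to -0.89), 1619 to 3051 for Ly6C-low against Ly6C-high cells (3702; Gpnmb 0.34 to 1.52), 1068 to 1931 at week 1, 538 to 1025 at week 4 (1243) and 1597 to 2808 at week 10. They ran from 129 to 812 for week 4 against 1 (Gpnmb log2 -0.021 to 2.07), 183 to 1642 for week 10 against 4 (1660; Gpnmb 0.59 to 2.67, Atp6v0d2 1.51 to 3.53) and 0 to 244 for week 30 against 20. A group left with 1 library was assumed to vary like the others. Groups of 2 libraries and the low depth of the LXR set limit what could be called.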
